A study of Mus musculus with 2 samples.

Results

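A set of 10 core enzymes of mitochondrial fatty acid β-oxidation was examined in mouse CD8+ T cells. The cells were cultured with bezafibrate or with its solvent, dimethyl sulfoxide (DMSO). The genes were chosen by name as Cpt1a, Cpt2, Acadvl, Acadl, Acadm, Acads, Hadha, Hadhb, Echs1 and Acaa2, and were read from every probe set whose only annotated gene was a member. Each of the 10 had exactly 1 such probe set, out of 22180 genes measured, and 0 shared a probe set with another gene. The bezafibrate array came from cells grown with the drug at 30 µM for the entire culture and the DMSO array from cells grown with solvent alone. In both groups naive cells were stimulated with beads carrying antibodies to CD3 and CD28 and with recombinant human interleukin-2 at 100 U/mL, and expansion ran to day 13. The labels give no mouse strain and state no pooling of animals. Each group has 1 array, so there is no replicate error, no p-value is given, and every difference is between 2 arrays.

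β-Oxidation breaks fatty acids down to acetyl-CoA inside mitochondria. Long-chain acyl groups enter as carnitine esters, and each turn of the cycle then runs through dehydrogenation, hydration, a further dehydrogenation and cleavage by a thiolase, with enzymes that differ in the chain length they prefer. Fibrates activate the peroxisome proliferator-activated receptors (PPARs), which are known to induce many of these genes in liver and muscle. In CD8+ T cells the pathway is known for its use by memory cells, whereas dividing effector cells rely more on glycolysis.

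Of the 10 genes, 2 were at least 1.5-fold higher with bezafibrate and 0 were at least 1.5-fold lower. The genes past that limit were Hadhb, the thiolase subunit of the trifunctional protein, at 1.90-fold, and Cpt1a, the entry enzyme of the carnitine shuttle, at 1.54-fold. Of the 12159 single-gene probe sets above the floor, 0.707% were as much higher and 0.559% as much lower; the floor was the median signal of all single-gene probe sets, to be passed on the brighter array, and all 10 genes passed it. At 2-fold, 0 of the 10 were higher, against 0.0987% of all. The genes and limits were chosen with earlier results of these data known, so these shares are a description and test nothing. Regardless of size, 6 of the 10 were higher with bezafibrate, 3 lower and 1 exactly equal, against 47.9% higher, 50.1% lower and 1.98% exactly equal among all probe sets above the floor. The median log2 ratio, bezafibrate minus DMSO, was 0.07 over the 10 genes and 0.00 over all probe sets above the floor. Without Cpt1a and Hadhb the remaining 8 genes had a median of 0.02 and ran from −0.24 for Echs1 to 0.20 for Acadvl.

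**Figure D1:**
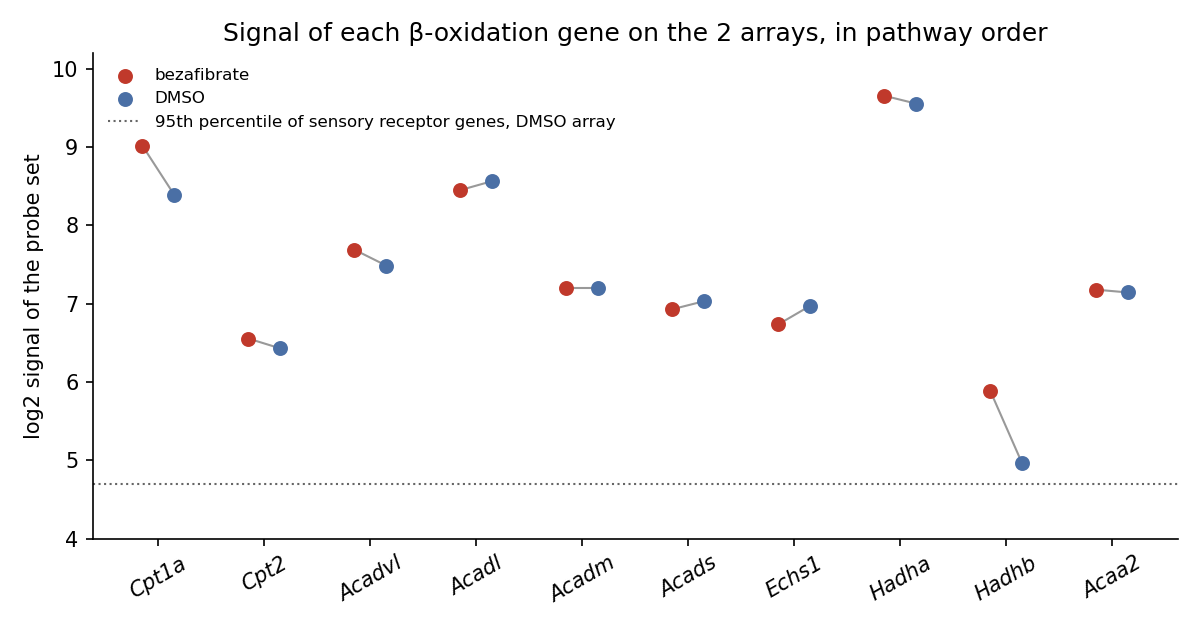
Log2 signal of each gene's probe set on the bezafibrate array (red, left of each pair) and the DMSO array (blue, right), in pathway order; each point is 1 array, and the dotted line is the 95th percentile of olfactory and vomeronasal receptor genes on the DMSO array (4.70). Cpt1a and Hadhb show the steepest lines, and the DMSO value of Hadhb (4.96) is the point nearest to the dotted line. Heights of different genes are not comparable, since probes differ in brightness.

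The level of 1 gene cannot be set against that of another on such an array, so each ratio was placed among probe sets of like signal, those whose mean log2 signal lay within 0.5 of its own. The 8 ratios under 1.5-fold each lay within the central 95% of that spread, and those of Cpt1a and Hadhb lay above it. The carnitine shuttle, which carries long-chain acyl groups across the mitochondrial membranes, held 1 of the larger differences.

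Cpt1a (probe set 17355915) encodes carnitine palmitoyltransferase 1A, which starts the import of long-chain fatty acids into mitochondria and is the main control point of the pathway. Its log2 signal was 9.02 on the bezafibrate array, against 8.39 on the DMSO array, a log2 ratio of 0.63. It ranked 69 from the highest among the 12159 probe sets above the floor. Of the 1466 probe sets of like signal, 0.136% had a ratio as high, and the central 95% of them ran from −0.39 to 0.34. Cpt1a spans 63410 bp, the longest of the 10, and across the 12143 probe sets above the floor with a known gene length the ratio correlated with length (Spearman's rho 0.27; probe sets of the same 2 arrays, given as a description). Among 368 probe sets of like signal and like gene length the median ratio was 0.10 and 0 reached that of Cpt1a. With the median of that class subtracted, the log2 ratio was 0.53, which is under the 1.5-fold limit of 0.58.

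The bases around the Cpt1a start site are shown because PPARs bind repeats of the hexamer AGGTCA, and this window holds a lone copy on the reverse strand, printed in capitals. The window covers chr19:3323051-3323350 of GRCm38.p6, plus strand, from 250 bases before to 50 bases after the annotated start, and was taken from RefSeq.
Cpt1a: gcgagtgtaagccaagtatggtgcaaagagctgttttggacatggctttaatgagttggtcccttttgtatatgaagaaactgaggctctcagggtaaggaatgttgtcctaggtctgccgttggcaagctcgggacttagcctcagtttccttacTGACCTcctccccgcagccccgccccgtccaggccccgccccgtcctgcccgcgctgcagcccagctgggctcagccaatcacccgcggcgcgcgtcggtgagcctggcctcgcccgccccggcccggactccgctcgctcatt
The hexamer began 94 bases before the start site. In all 32817 such windows of the mouse annotation, 16.3% held the hexamer on either strand. The repeat with 1 spacer base, AGGTCANAGGTCA, which is the classical PPAR element, was in 0.0396% of windows and in 0 of the 9 available for these genes. At so small a share, 0 of 9 windows says nothing about these genes, and bases outside the windows were not searched. The window of Acaa2 is not shown.

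Cpt2 (probe set 17427961) encodes the inner-membrane enzyme that returns the acyl group to coenzyme A. Its signal was 6.56 with bezafibrate, against 6.43 with DMSO, a log2 ratio of 0.13. Of 2629 probe sets of like signal, 27.4% had a ratio at least as high, so Cpt2 lay well inside their spread. The log2 ratio of Cpt1a exceeded that of Cpt2 by 0.50.

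The acyl-CoA dehydrogenases, which carry out the initial oxidation of each turn and differ in preferred chain length, showed small differences in both directions. The very-long-chain enzyme had the largest of these 4 differences. Acadvl (probe set 17265129), which encodes it and acts at the inner membrane, had a signal of 7.69 with bezafibrate, against 7.49 with DMSO, a log2 ratio of 0.20 (1.15-fold). At 5246 bp it is the shortest of the 10 genes, and the 169 probe sets of like signal and length had a median ratio of −0.13, of which 10 reached that of Acadvl. With the class median subtracted its log2 ratio was 0.33.

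Acadl (probe set 17223903), the long-chain enzyme, had 8.45 with bezafibrate and 8.56 with DMSO, a log2 ratio of −0.11. Acadm (probe set 17411323), the medium-chain enzyme whose gene is a known PPARα target in liver and heart, had 7.20 on both arrays, with exactly equal deposited values. Acads (probe set 17451649), the short-chain enzyme, had 6.93 with bezafibrate and 7.03 with DMSO, a log2 ratio of −0.10. The long-chain to short-chain enzymes thus stood slightly below or level with DMSO, each inside the central 95% of probe sets of like signal, which ran from −0.38 to 0.36 for Acadl, from −0.37 to 0.42 for Acadm and from −0.38 to 0.42 for Acads.

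The start-site windows of Acadvl and Acadm also held the hexamer. They are shown because they hold the same letters as the Cpt1a window, with the hexamer in capitals. The Acadvl window covers chr11:70015379-70015678 and the Acadm window chr3:153944594-153944893, both on the minus strand of GRCm38.p6 and printed in the direction of transcription.
Acadvl: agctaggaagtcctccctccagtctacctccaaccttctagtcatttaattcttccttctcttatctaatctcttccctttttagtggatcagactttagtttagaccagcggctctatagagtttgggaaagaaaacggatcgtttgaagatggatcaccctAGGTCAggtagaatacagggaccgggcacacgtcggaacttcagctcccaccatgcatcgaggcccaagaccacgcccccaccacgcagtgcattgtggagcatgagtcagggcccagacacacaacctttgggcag
Acadm: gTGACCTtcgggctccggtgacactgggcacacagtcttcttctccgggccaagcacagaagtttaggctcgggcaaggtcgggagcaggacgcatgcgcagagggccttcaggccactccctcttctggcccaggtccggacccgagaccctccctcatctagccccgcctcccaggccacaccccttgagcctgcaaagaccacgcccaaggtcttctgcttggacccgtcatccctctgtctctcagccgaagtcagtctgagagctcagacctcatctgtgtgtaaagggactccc
The copy began 87 bases before the start site in Acadvl and 249 bases before it, on the reverse strand, in Acadm. The log2 ratios were 0.63 for Cpt1a, 0.20 for Acadvl and 0.00 for Acadm, and any part of the hexamer in them was not tested.

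Hydration of the enoyl-CoA is carried out by Echs1 for short and medium chains and by the trifunctional protein for long chains. Echs1 (probe set 17497612) had a signal of 6.74 with bezafibrate, against 6.97 with DMSO, a log2 ratio of −0.24 (1.18-fold lower). This was the lowest ratio of the 10 genes. It was inside the central 95% of its 2629 probe sets of like signal, from −0.39 to 0.43, of which 11.4% were at or below it. Its window, chr7:140116372-140116671 on the minus strand, is the last of those holding the hexamer and is shown for that reason. Here the hexamer began 83 bases before the start site.
Echs1: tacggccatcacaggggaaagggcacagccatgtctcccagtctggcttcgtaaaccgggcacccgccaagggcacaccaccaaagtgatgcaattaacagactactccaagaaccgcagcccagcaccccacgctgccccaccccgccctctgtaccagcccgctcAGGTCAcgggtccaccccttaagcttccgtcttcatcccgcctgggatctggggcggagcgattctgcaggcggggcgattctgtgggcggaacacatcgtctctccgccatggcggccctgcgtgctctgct
In all, 4 of the 9 windows held the hexamer, against 16.3% of all 32817 windows. With so few windows this count is a description only. The log2 ratios of the 4 genes ran from −0.24 to 0.63, and neither Hadha nor Hadhb was among them. A match to these letters is a description of the sequence and not a binding site.

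The mitochondrial trifunctional protein is a complex of α subunits, encoded by Hadha, and β subunits, encoded by Hadhb, which depend on each other for stability. The α subunit holds the hydratase and the hydroxyacyl-CoA dehydrogenase for long chains, and the β subunit the thiolase. The probe sets of these subunits gave unequal ratios. Hadha (probe set 17446643) had a signal of 9.65 with bezafibrate, against 9.55 with DMSO, a log2 ratio of 0.10 (1.07-fold). Hadhb (probe set 17435748) had 5.88 with bezafibrate, against 4.96 with DMSO, a log2 ratio of 0.92. The log2 ratio of Hadhb exceeded that of Hadha by 0.82, or 1.77-fold.

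Hadhb ranked 16 from the highest among the 12159 probe sets above the floor. Of the 3308 probe sets of like signal, 0.0907% had a ratio as high, with a central 95% from −0.44 to 0.43, and 0 of 221 of like signal and gene length did. For Hadha, 29.0% of 639 probe sets of like signal had a ratio as high. The Hadhb probe set was dim in DMSO, at 0.26 above the 95th percentile of 1405 probe sets of olfactory and vomeronasal receptor genes, taken as silent in T cells, and 3.35% of those were as bright. On the bezafibrate array Hadhb stood 1.21 above that percentile, and 0.854% were as bright. No further probe set of Hadhb was in the table, so the difference rests on 1 probe set whose DMSO signal was close to background. Mir1960, a microRNA gene inside Hadhb on the same strand, was named after its position was seen. Its own probe set (17435769) had 4.42 with bezafibrate, against 4.32 with DMSO, both under the 95th percentile of the receptor genes (4.68 with bezafibrate and 4.70 with DMSO).

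**Figure D2:**
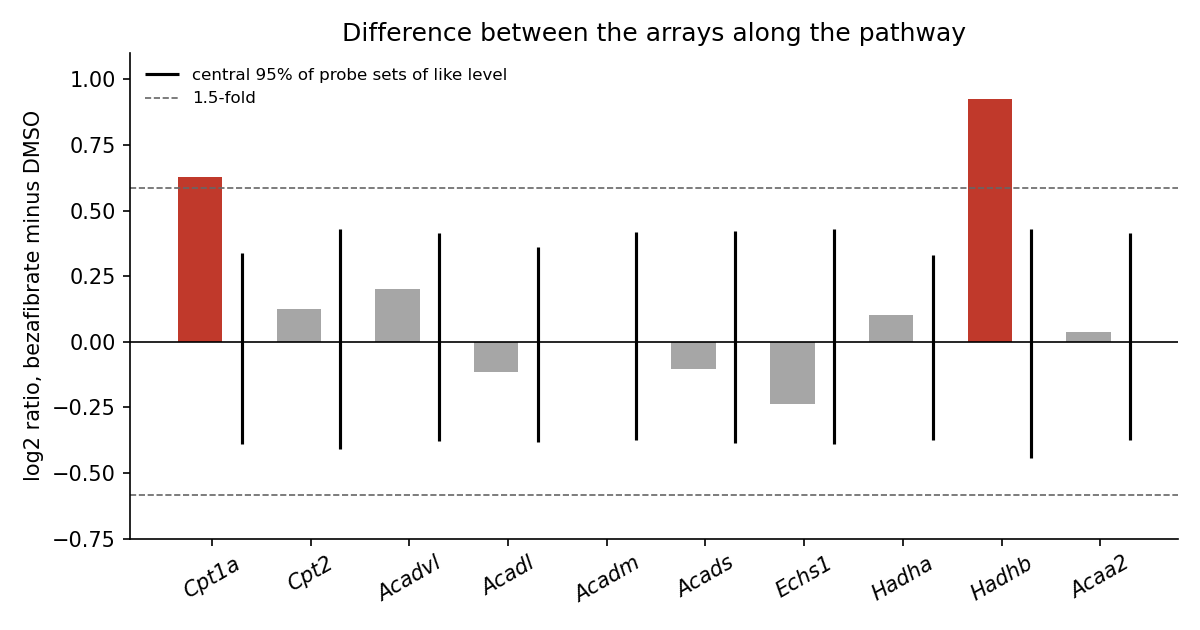
Log2 ratio, bezafibrate minus DMSO, of each gene in pathway order (bars; red where at least 1.5-fold), with the central 95% of ratios of probe sets of like signal as a black line beside each bar and the 1.5-fold limits dashed. The bars of Cpt1a (0.63) and Hadhb (0.92) reach past their lines, the other 8 do not, and Acadm has no visible bar because its values were equal.

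Hadha and Hadhb are neighbours on chromosome 5 and are transcribed away from each other, with annotated start sites 273 bases apart. Their windows share 228 bases, chr5:30155003-30155230 of GRCm38.p6, which are printed in capitals in the Hadhb window (chr5:30155003-30155302, plus strand). The shared stretch is shown because the genes it lies between gave unequal ratios.
Hadhb: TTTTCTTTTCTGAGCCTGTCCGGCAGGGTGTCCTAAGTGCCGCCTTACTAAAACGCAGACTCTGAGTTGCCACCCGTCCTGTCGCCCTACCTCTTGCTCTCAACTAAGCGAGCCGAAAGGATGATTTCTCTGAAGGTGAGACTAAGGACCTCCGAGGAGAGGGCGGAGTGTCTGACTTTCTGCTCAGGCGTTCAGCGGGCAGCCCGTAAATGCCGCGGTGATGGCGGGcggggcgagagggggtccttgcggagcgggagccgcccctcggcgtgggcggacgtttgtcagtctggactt
The rest of the Hadha window, 72 bases at chr5:30154931-30155002, follows on the minus strand, with the 50 transcribed bases in capitals.
Hadha: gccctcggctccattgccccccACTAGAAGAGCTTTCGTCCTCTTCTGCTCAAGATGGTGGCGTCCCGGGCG
The GC box GGGCGG was found on either strand in both windows, in 7 of the 9 and in 35.6% of all windows. The CCAAT box, also on either strand, was in 1 of the 9, that of Cpt1a, and in 37.4% of all windows. The element TCAAGGTCA of the oestrogen-related receptors, which contains the hexamer AGGTCA, was in 0 of the 9 and in 0.424% of all. At that share too, 0 of 9 says nothing about these genes. The 9 windows had a GC content from 50.7% for Acadvl to 70.3% for Acadl, against a median of 52.7% over all windows.

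Acaa2 (probe set 17351811) encodes the matrix thiolase that ends each turn for medium chains. Its signal was 7.18 with bezafibrate, against 7.14 with DMSO, a log2 ratio of 0.04. Of 2589 probe sets of like signal, 43.5% had a ratio as high. The log2 ratio of the thiolase gene Hadhb exceeded that of Acaa2 by 0.89.

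**Figure D3:**
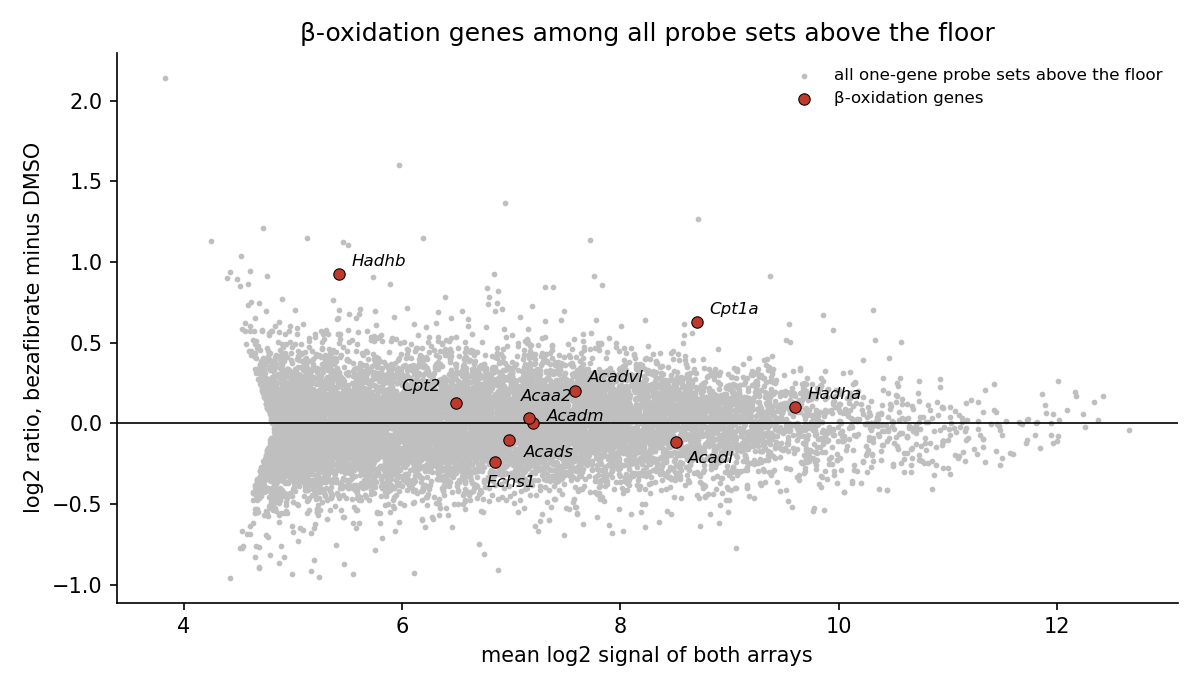
Log2 ratio, bezafibrate minus DMSO, against the mean log2 signal of both arrays, for the 12159 single-gene probe sets above the floor (grey) and the 10 β-oxidation genes (red, named). Hadhb and Cpt1a stand near the upper edge of the grey points, and the other 8 genes lie between −0.24 and 0.20.

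Genes that supply, assist or regulate these steps were read next. Of 57 such genes in 8 lists, 52 were read by a probe set of their own, and the brightest stood for each gene. Of these, 44 were above the floor. Of the 44, 0 were at least 1.5-fold higher and 0 lower, against 0.672% and 0.526% of the 11607 genes above the floor. A count of 0 among 44 is near those shares. Among the 44, 20 were higher with bezafibrate, 23 lower and 1 equal, with a median log2 ratio of −0.02, against 48.4% higher, 49.7% lower and a median of 0.00 over all genes above the floor. A dimmer probe set of Fabp5, a fatty acid binding protein, was past 1.5-fold, at 3.84 with bezafibrate and 4.71 with DMSO, below the floor. Its log2 ratio was −0.87, against 0.01 for the brightest probe set of Fabp5. The remaining Fabp5 probe sets, both above the floor, had −0.22 and −0.25.

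In the carnitine shuttle, Slc25a20, the carrier that exchanges acylcarnitine for carnitine between Cpt1a and Cpt2, had 7.30 with bezafibrate and 6.95 with DMSO, a log2 ratio of 0.35. Crat, which handles short acyl groups, had −0.27 on its brighter probe set and −0.19 on the other. Of the 4 measured genes of this list 2 were higher and 2 lower, and 0 passed 1.5-fold; the median log2 ratio was 0.06. Cpt1b, the muscle-type isoform, was read only together with Chkb and Gm44502 and is not counted. Among regulators of carnitine palmitoyltransferase 1 was Acaca, the cytosolic enzyme whose product malonyl-CoA inhibits it. Acaca had 8.04 with bezafibrate and 7.58 with DMSO, a log2 ratio of 0.46. The central 95% of genes above the floor ran from −0.42 to 0.42. Acaca spans 272017 bp, and the ratio correlated with gene length, as given for Cpt1a. Mlycd, which degrades malonyl-CoA, had 5.69 with bezafibrate and 5.98 with DMSO, a ratio of −0.29.

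The list called auxiliary enzymes had the lowest median of the 8 lists, −0.17, with 7 of 10 lower, 2 higher and 1 equal. Of all genes above the floor, 49.7% were lower and 48.4% higher. The ratio correlated with gene length, as given for Cpt1a, and the part of length in the medians of these lists was not tested. The auxiliary list includes Hadh, a hydroxyacyl-CoA dehydrogenase of the cycle itself for shorter chains. Hadh had 8.24 with bezafibrate and 8.33 with DMSO, a log2 ratio of −0.10. Eci2, an isomerase for unsaturated chains, had 6.91 with bezafibrate and 7.24 with DMSO, a log2 ratio of −0.33, and its counterpart Eci1 had 5.78 with bezafibrate and 5.59 with DMSO, a ratio of 0.19. The other acyl-CoA dehydrogenases had a median of 0.10, with 5 of 7 higher, from −0.07 for Acadsb, of branched-chain amino acid breakdown, to 0.21 for Acad8, which acts on a valine product. Acyl-CoA synthetases, which activate fatty acids, had a median of −0.04, with Acsl5 at 0.07 and Acsl6 at −0.28. The second probe set of Acsl6, below the floor, had 0.02. Fatty acid uptake and binding genes had a median of −0.03, with Acbd3 at 0.04 and Dbi, the acyl-CoA binding protein, at −0.10 among those above the floor.

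Electron transfer from the acyl-CoA dehydrogenases to the respiratory chain runs through the flavoprotein of Etfa and Etfb and its oxidoreductase Etfdh. Their log2 ratios were −0.03 for Etfa, 0.06 for Etfb and 0.18 for Etfdh, and the list's median was 0.01. The peroxisomal counterparts had a median of 0.00, with 3 of 7 higher. Ehhadh, the peroxisomal bifunctional enzyme and a known PPARα target, had 5.37 with bezafibrate and 5.12 with DMSO, a ratio of 0.26, and Acaa1a, a peroxisomal thiolase, had 5.51 with bezafibrate and 5.65 with DMSO, a ratio of −0.14.

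**Figure D4:**
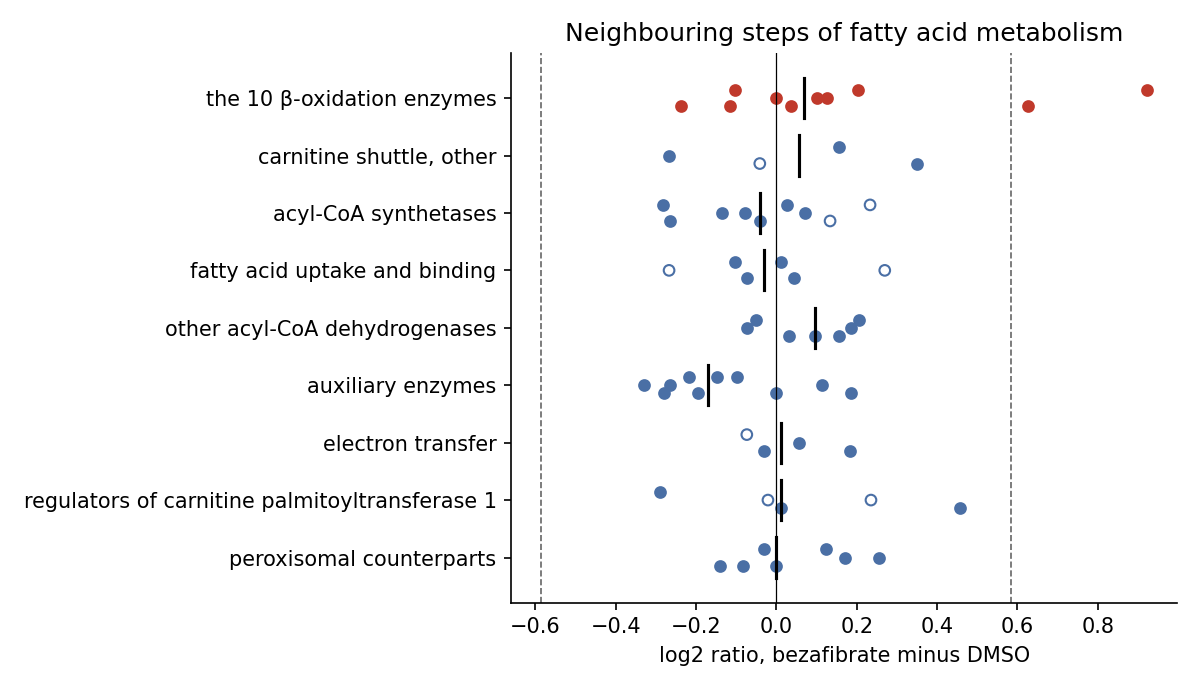
Log2 ratio, bezafibrate minus DMSO, of each gene (points; open where below the floor) in the 10 β-oxidation enzymes (red) and 8 lists of neighbouring steps (blue), with each list's median as a black bar and the 1.5-fold limits dashed. Only 2 points, Cpt1a and Hadhb, lie past a limit, and the auxiliary enzymes have the lowest median (−0.17).

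The labelled cell type was checked against its markers. The CD8 T cell list held Cd8a and Cd8b1 and, for the rest, genes of T cells in general, such as Cd3e. All 8 measured genes of the list were above the floor. Their signals ran from 7.50 to 11.05 on the bezafibrate array and from 7.68 to 11.10 on the DMSO array. All 8 were lower with bezafibrate, with log2 ratios from −0.30 for Cd3d to −0.06 for Cd3e and a median of −0.16, where 49.7% of all genes above the floor were lower. Of the 8, 7 are shorter than the median gene of 16166 bp, and shorter genes had lower ratios. With the class medians of signal and gene length subtracted, an alternative added after seeing the data, 7 were lower, 1 was higher and the median was −0.09. Of 42 measured markers of other cell types, 9 were above the floor, 19 were higher, 19 lower and 4 equal, with a median of 0.00. The 4 CD4 T cell markers were all higher, with a median of 0.17, where 48.4% of all genes above the floor were higher. Only 2 of the 4 were above the floor. Zbtb7b had 5.48 with bezafibrate and 5.22 with DMSO, and Foxp3 had 5.02 with bezafibrate and 4.95 with DMSO. Cd4 itself was below the floor, at 4.29 with bezafibrate and 3.88 with DMSO. Cd40lg, also below it, had 3.05 with bezafibrate and 3.03 with DMSO. Of the adipocyte markers 0 of 5 and of the hepatocyte markers 1 of 5 were above the floor; both are cell types in which PPAR agonists are known to act. The brightest of these markers were Eomes, which CD8+ T cells also express, and Cd209a, with a log2 ratio of −0.45. A dimmer probe set of Cd209a, at 3.86 with bezafibrate and 3.98 with DMSO, below the floor, had −0.12. Of the 42, 2 were past 1.5-fold. Above the floor, 0 of 9 were at least 1.5-fold higher and 1 lower, against 0.672% and 0.526% of all genes above the floor. Fcer1g, a natural killer cell marker, had 5.64 with bezafibrate and 6.57 with DMSO, but of the 5 markers of its list 3 were higher, 1 lower and 1 equal. The B cell marker Cr2, below the floor, had 3.82 with bezafibrate and 2.96 with DMSO. Its list of 6 went mostly the other way, with 2 higher and 4 lower. Cd79b, the only B cell marker above the floor, had 4.85 with bezafibrate and 5.41 with DMSO. The part of these shifts in the ratios of the β-oxidation genes was not tested. In bulk RNA such as this, fewer cells of a kind and less RNA per cell cannot be told apart.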

How the data were processed

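Expression was read on 2 Affymetrix arrays from biotin-labelled product of total RNA, amplified by a whole-transcript method, per the labels' protocols. The deposited values are log2 signals per probe set, which the authors made with Affymetrix Expression Console by RMA, as the submitters' processing notes name; versions and genome build are not given in the sources. The log2 scale follows from the range of the values. RMA equalises the arrays, which removes any shift common to most genes, and compresses differences of dim probe sets. The number of arrays limits the precision.

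Of 41801 probe sets, 33793 had values and 23521 named exactly 1 gene in the platform annotation, 1814 several and 8458 none. The ratio is bezafibrate minus DMSO. The floor was 4.81 on the bezafibrate array and 4.84 on the DMSO array. With 1 array per group, genes were compared by the size of the fold, at 1.5-fold, with no test. Gene lengths and start-site windows came from RefSeq for GRCm38.p6; 99.8% of genes had a length, and classes of like signal and length were 10 by 10. The text names every member. Of each other list it names the genes past 1.5-fold above the floor or, failing these, the highest and lowest above the floor. Mir1960, Cd209a, Eomes, Fcer1g, Cr2, Cd79b, Cd4, Zbtb7b, Foxp3, Cd40lg, Hadh, Etfb, the second probe sets and Cpt1b were added after their values were seen. The members, lists and limits were chosen with earlier results of these data known. Alternatives were quantile normalization, a loess curve on signal, centring on housekeeping genes, subtraction of class medians, other floors and limits, and other handling of probe sets. Recovery of known differences after quantile normalization was checked on simulated arrays. For the loess and class-median subtractions only the median of all probe sets was checked, which the subtraction itself fixes. The other calculations were not checked in this way. Plots were drawn with matplotlib 3.10.9, and values computed with pandas 2.3.3, numpy 2.4.6, statsmodels 0.14.6 and scipy 1.17.1 under Python 3.11.15.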

Additional observations from a re-analysis of the deposited data

How the results depend on the processing

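No paired analysis was possible because each group has 1 array and no result comes from a test. Of 120 recomputed values of the β-oxidation and neighbouring genes, 117 moved by less than the robust SD of ratios of the olfactory and vomeronasal receptor probe sets (0.30), or for counts by no more than 1.5 times, and 3 moved more. That SD is larger than the ratio of every member except Cpt1a and Hadhb. A member such as Acadm, from −0.01 to 0.03, could therefore change sign and still count as unmoved. The count of the 10 genes at least 1.5-fold higher was 2 with the deposited values. It was 1 with the class medians of signal and gene length subtracted, which took Cpt1a to 0.53. It was 1 with the floor at the 75th percentile, which leaves out Hadhb by its signal, and 0 at a 2-fold limit. The count at least 1.5-fold lower was 0 under every alternative, also with no floor. Log2 ratios of Hadhb ran from 0.92 to 0.96, of Cpt1a from 0.53 to 0.66 and of Hadha from 0.02 to 0.13. The median of the 10 genes was 0.02 with class medians subtracted and 0.16 as a mean, and the Hadhb minus Hadha difference ran up to 0.94. Quantile normalization, loess and housekeeping centring each moved the median of all probe sets by less than 0.04. Taking the brightest probe set, averaging probe sets or adding those of several genes changed nothing, because each gene has 1 probe set and shares none. The values recomputed with these settings, counted among the 120, could not move. With 1 array per group, no difference given here, those of Cpt1a and Hadhb included, could be told from a difference between any 2 arrays.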
